A study of Homo sapiens with 8 samples.

Results

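Regions of G401 chromatin that were called accessible on exactly 1 of 3 days of SMARCB1 induction, and not before it, are described here. They were found by joining the 4 deposited peak lists (days 0, 1, 3 and 7) wherever peaks overlapped by at least 1 bp, and keeping joined regions with a peak in exactly 1 of the day 1, 3 and 7 lists and none in the day 0 list. This gave 31689 members among 146099 regions in all, or 21.7% of them. The members were thus chosen by presence or absence of a peak, so their number, strength and width describe the choice and are no independent finding. Each of the 31689 members turned out to be a single peak of a single list.

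The cells were G401, an established human line derived from a renal rhabdoid tumour without SMARCB1, and open chromatin was mapped in bulk by ATAC-seq, which uses a transposase to insert adapters where DNA is exposed. The line was a stable one with inducible SMARCB1 re-expression, kept in tetracycline-free serum, and doxycycline was given at 1 µg/ml. The 8 samples formed 4 groups of 2 replicates: day 0, labelled SMARCB1 -/-, and days 1, 3 and 7 of induction, labelled SMARCB1 +/+, a label that here stands for induced re-expression. Tagmented DNA came from 100000 cells per replicate, per the labels. What was deposited is 1 peak list per day, so no value per sample can be given, the spread between replicates is unknown, and no test across samples could be made. The list that names no day was taken as day 0 by elimination, as the rule above requires.

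SMARCB1 is a core subunit of the SWI/SNF (BAF) complexes, which use ATP to slide and evict nucleosomes and so open DNA for transcription factors. Loss of SMARCB1 is the defining genetic lesion of rhabdoid tumours, and BAF complexes that lack it bind distal enhancers poorly. Accessible regions fall into promoters, which tend to be open in most states of a cell, and distal elements, which are more often specific to a state. In bulk chromatin, a region open in few cells and a region open weakly in all cells cannot be told apart.

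Day 3 had the most such regions. Peaks seen only on day 3 among the 4 lists numbered 14215, which is 9.73% of all joined regions (95% interval 9.58 to 9.88), against 9780 on day 1 (6.69%, 6.57 to 6.82) and 7694 on day 7 (5.27%, 5.15 to 5.38). Intervals of shares are exact Clopper-Pearson intervals, treat regions as independent draws and cover neither read error nor the spread between cultures. As a share of the day's own list the order was the same, at 8.90%, 12.1% and 7.46% of the lists of days 1, 3 and 7, which hold 109876, 117606 and 103182 peaks. Members made up 25.1%, 29.5% and 21.8% of each day's regions without a day 0 peak on days 1, 3 and 7. They covered 2.72, 4.14 and 2.17 Mb, or 4.14%, 5.91% and 3.57% of the bases in the lists of days 1, 3 and 7.

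The order of the days changed when the lists were cut to the same length. When only the 80744 strongest peaks of each list were taken, which is the length of the day 0 list, the count of members was 3997, 4815 and 5025 for days 1, 3 and 7, so day 7 came first and day 1 last. That cut also removed the weaker peaks, and the median fold of members rose to 3.57, 3.85 and 3.66, so length and strength cannot be told apart here. Under the other definitions tried, day 3 stayed first and day 7 last. These were a minimum score of 30, joining across gaps of up to 200 bp, ignoring the day 0 list, and a reciprocal overlap of at least 50%.

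**Figure D1:**
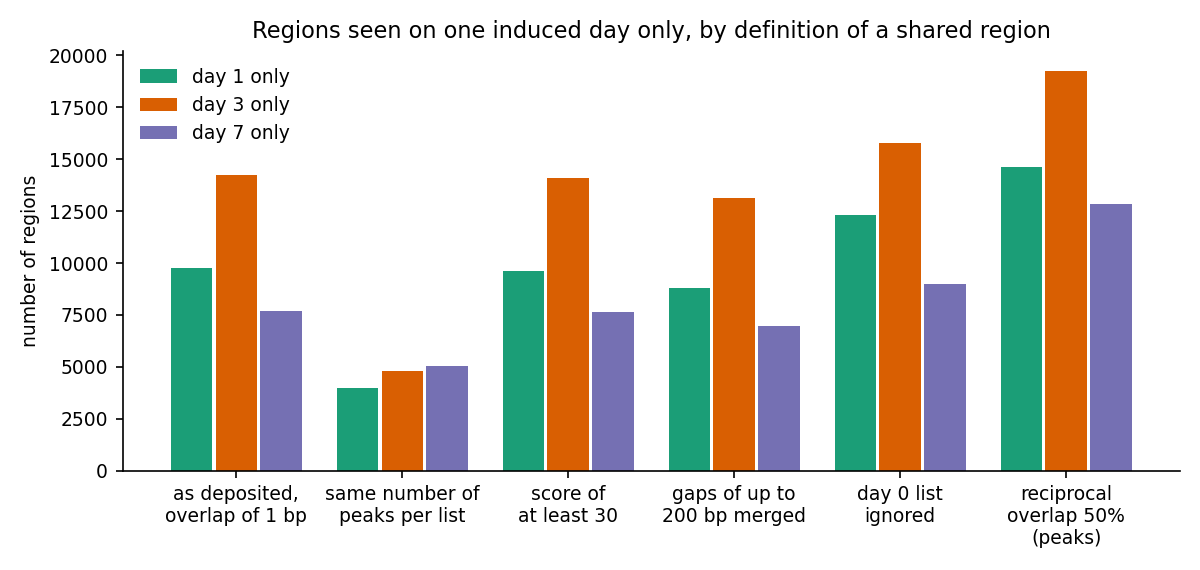
Number of regions seen on day 1, 3 or 7 only (bars, from 0) under the definition used here and 5 others. Day 3 is highest in every set of bars except where the same number of peaks was taken from each list, where day 7 reaches 5025 and day 3 4815.

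Members were weak peaks. The authors' fold enrichment, which sets the reads at a summit against the local background in the same list, had medians of 2.91, 2.95 and 3.05 for members of days 1, 3 and 7, where the whole lists had medians of 3.83, 3.77 and 3.87. A fold of at least 4 was reached by 231 day 1 members (2.36%), 719 day 3 members (5.06%) and 408 day 7 members (5.30%). Of all peaks in those lists, 46.5%, 45.7% and 47.1% reached it. A fold of at least 5 was reached by 6, 64 and 29 members, against 31.0%, 29.4% and 30.2% of the lists of days 1, 3 and 7. A fold of at least 6 was reached by 0, 4 and 2 members, against 20.1%, 18.2% and 18.6% of the lists.

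The reads behind a member were few. The number of reads at each summit could be worked out from fold and -log10 p together, with a median over members of 27, 28 and 26 on days 1, 3 and 7, against 51, 52 and 48 over the whole lists. The smallest summit called in any list held 16, 17 and 18 reads on days 1, 3 and 7, and 18 on day 0. Divided by the genome-wide background of the list, a measure of depth that was 6.04, 6.73 and 6.10 reads for days 1, 3 and 7, the median summit stood at 4.47, 4.16 and 4.26. By the authors' -log10 q, 47.1%, 43.6% and 46.6% of members lay under 5 on days 1, 3 and 7, as did 11.1%, 11.7% and 11.2% of the lists. At this depth, no peak in a list does not show that a region was closed on that day.

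The share of a list that was seen on its day only rose steeply toward the weak end. With each list split into 10 equal parts by -log10 q, members were 0 of 10988 peaks in the strongest 10% of the day 1 list, 0 of 11761 of the day 3 list and 0 of 10319 of the day 7 list, with exact 95% intervals that reach at most 0.0357%. In the weakest 10% they made up 45.2% (44.3 to 46.1) of the day 3 list, 38.4% (37.5 to 39.3) of the day 1 list and 30.8% (29.9 to 31.7) of the day 7 list. Day 3 also led at equal -log10 q. The lists differ in depth, with a genome-wide background of 6.73 reads on day 3 against 6.04 and 6.10 on days 1 and 7. Equal -log10 q therefore need not be equal strength across days. Of peaks with a -log10 q from 5 to 6, members were 32.1% (31.1 to 33.1), 25.7% (24.8 to 26.6) and 20.2% (19.3 to 21.1) of the lists of days 3, 1 and 7, and from 10 to 15 these shares were 4.05%, 1.15% and 1.47% in the same order of days. A day 3 peak is set against the 3 shorter lists, whereas peaks of days 1 and 7 are set against the longest one. The part of list length or of depth in this order was not tested within bins.

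**Figure D2:**
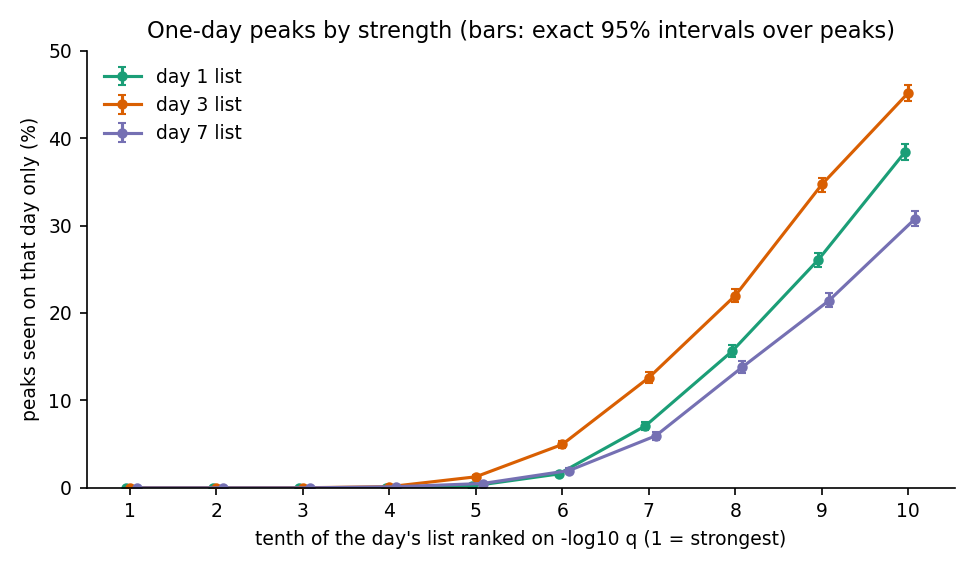
Share of peaks seen on that day only (y axis, percent, with exact 95% intervals over peaks) in each of 10 equal parts of a day's list ranked on -log10 q (x axis, 1 is the strongest). The share is at most 1.26% in parts 1 to 5 of all 3 lists and reaches 45.2% on day 3, 38.4% on day 1 and 30.8% on day 7 in part 10.

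Members were narrow, and the days hardly differed in this. Median width was 255 bp for day 1 members (95% interval of the median 253 to 256), 265 bp for day 3 members (264 to 267) and 256 bp for day 7 members (254 to 258), with the middle 50% from 219 to 310 bp, 224 to 330 bp and 219 to 318 bp. Peaks of the same lists that lay in regions open on every day had medians of 627, 617 and 582 bp. The narrowest width in every list was 200 bp, and 9.56%, 8.08% and 9.81% of members had exactly that width on days 1, 3 and 7, against 1.97%, 1.84% and 2.03% of the lists. A width of at most 250 bp was found in 47.3%, 42.1% and 46.7% of members, against 12.2%, 12.0% and 12.5% of the lists.

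Members were also narrower than peaks of the same strength in regions open on every day or gained on all 3 induced days. Among peaks with a -log10 q from 6 to 8, members had a median width of 275 bp on day 1, 283 bp on day 3 and 273 bp on day 7. Peaks of the same strength in regions open on every day had medians of 338, 334 and 328 bp, and those in regions gained on all 3 induced days 336, 353 and 326 bp. Within the members, width rose with fold: day 3 members with a fold under 3 had a median of 248 bp and those with a fold of 5 or more 432 bp, and on day 7 these were 245 and 430 bp.

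**Figure D3:**
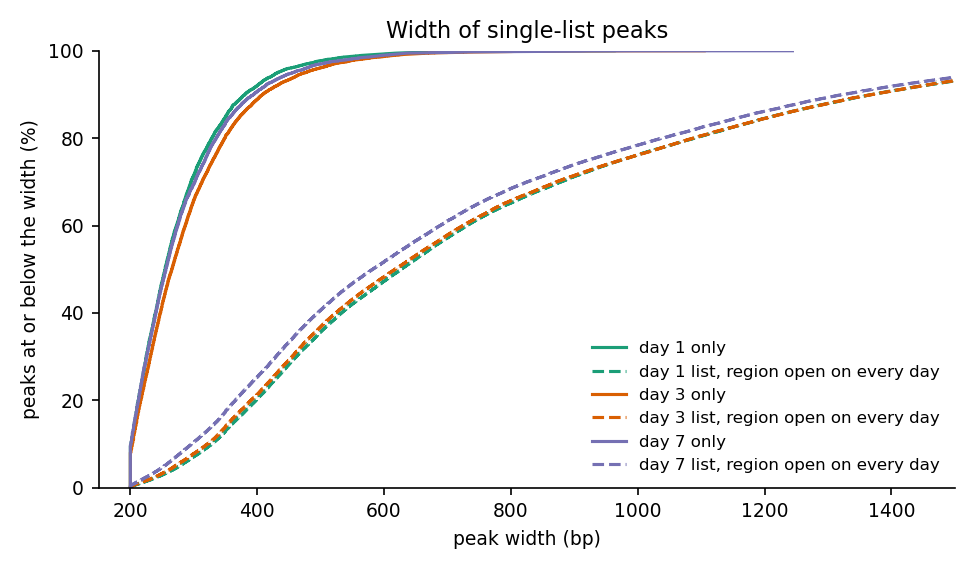
Cumulative share of peaks (y axis, percent) by width in bp (x axis) for members of each day (solid) and for peaks of the same list in regions open on every day (dashed). The solid curves nearly coincide, with medians from 255 to 265 bp, and the dashed ones have medians from 582 to 627 bp.

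Regions gained on several induced days were wider and, with 1 exception, had higher folds than members. Regions seen on day 0 only, which mirror the members on the uninduced side, had a median peak width of 250 bp and a median fold of 2.87. Regions shared by 2 induced days without day 0 had median folds of 3.12 (days 1 and 3), 3.01 (days 1 and 7) and 3.37 (days 3 and 7), and median peak widths of 319, 276 and 330 bp. The fold of the pair of days 1 and 7 was thus below the 3.05 of day 7 members. Regions gained on all 3 induced days reached 3.89 and 473 bp, and regions open on every day 4.56 and 591 bp.

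Few members lay at the 50 bp edge of the rule. Of the members, 185 on day 1, 158 on day 3 and 142 on day 7 had a peak of another list within 50 bp, with median folds of 2.77, 2.72 and 2.79. Just outside it lay 170, 159 and 118 regions in which a peak of that day overlapped a single peak of another list by at most 50 bp, with median folds of 2.84, 2.75 and 2.86. A wider look gave 2468 of 9780, 3074 of 14215 and 1922 of 7694 members within 1 kb of a peak of another list on days 1, 3 and 7. Asking for a reciprocal overlap of at least 50% raised the counts to 14635, 19259 and 12853 peaks.

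Most members of a day had no other member of that day within 10 kb. Whether they lay closer together or farther apart than their number alone implies was not tested. The median distance from a member to the nearest member of the same day was 44019, 37404 and 66680 bp for days 1, 3 and 7, shortest where members were most numerous. With the 7694 strongest members of each day, the medians were 54123, 72894 and 66680 bp on days 1, 3 and 7, so day 3 had the widest spacing. That cut kept every day 7 member but removed the weaker ones of days 1 and 3, so number and strength cannot be told apart here. Within 10 kb of another member of the same day lay 1666 of 9780 day 1 members, 2599 of 14215 day 3 members and 1062 of 7694 day 7 members.

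Joining members of the same day at gaps of at most 10 kb left 83.0%, 81.7% and 86.2% of them alone on days 1, 3 and 7. Groups of at least 3 numbered 75, 121 and 31. The largest day 1 groups held 4 members, the most compact of the 3 listed within 6.39 kb on chromosome 18, 12591131 to 12597523 (hg19), with folds from 2.72 to 3.69. The largest day 3 groups held 5 members, the most compact of the 3 listed within 20.7 kb on chromosome 22, 30693013 to 30713666, among 8 joined regions of which 1 was open on every day. The largest day 7 group held 5 members within 19.5 kb on chromosome 5, 21669242 to 21688748. Joined regions with a day 0 peak were 0 of 6 there, 0 of 4 in this day 1 group and 1 of 8 in this day 3 group. With the members of all 3 days pooled, 5272 groups held 2 or more members, of which 1650 held members of a single day, 3352 of 2 days and 270 of all 3.

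Members of different days were interspersed. The nearest member of any day to a day 1 member was from day 1 in 33.3% (32.3 to 34.2), from day 3 in 44.0% and from day 7 in 22.8%, where days 1, 3 and 7 hold 30.9%, 44.9% and 24.3% of all members. For day 3 members the own-day share was 45.5% (44.6 to 46.3). For day 7 members it was 28.4% (27.4 to 29.5). The own-day shares of days 1 and 7 were thus above the 30.9% and 24.3% that these days make up, whereas the day 3 interval holds its 44.9%.

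The median distance from members to regions open on every day was longer the later the day, but not every other measure of the distance followed this order. Medians were 9183 bp for day 1 members (95% interval of the median 8862 to 9409), 11048 bp for day 3 members (10798 to 11331) and 12052 bp for day 7 members (11657 to 12429). Counting error between regions, which these intervals hold, is all the error that can be given. Within 1 kb of such a region lay 9.21% (8.65 to 9.80) of day 1 members, 7.46% (7.03 to 7.90) of day 3 members and 8.10% (7.50 to 8.73) of day 7 members, so here day 3 had the lowest share. Within 10 kb lay 53.2% (52.2 to 54.2) of day 1 members, 46.7% (45.9 to 47.5) of day 3 members and 44.0% (42.9 to 45.1) of day 7 members. The distance that 90% of members did not exceed was 41235, 58053 and 57547 bp on days 1, 3 and 7. Beyond 100 kb lay 2.54% (2.23 to 2.87), 4.69% (4.34 to 5.05) and 5.11% (4.63 to 5.62). The order of the medians held with the same number of peaks from each list, with medians of 10224, 13348 and 15327 bp on days 1, 3 and 7.

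Other classes of region fell on both sides of these values. Regions seen on day 0 only had a median distance of 8366 bp, and regions open on every day lay 7368 bp from the next of their kind. Regions shared by days 1 and 3 stood at 9232 bp and those shared by days 1 and 7 at 8868 bp, whereas those shared by days 3 and 7 stood at 14395 bp. Regions gained on all 3 days had a median of 11702 bp.

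Local background moved with this distance. It is read from the surroundings of a peak, so a tall neighbour raises it and lowers the fold of a weak peak beside it. Members whose local background was at the genome-wide level numbered 2933 of 9780, 5422 of 14215 and 2479 of 7694 on days 1, 3 and 7, and lay a median of 20149, 22864 and 25412 bp from a region open on every day. Of these, 5.86%, 5.57% and 5.08% lay within 5 kb of such a region on days 1, 3 and 7, against 38.6%, 38.3% and 31.1% of the members with a higher local background. Members with a local background of at least 2 times the genome-wide one lay closer, at 3292, 3159 and 2676 bp, where day 7 was the lowest of the 3. Such members were 26.2% of day 1, 21.0% of day 3 and 16.7% of day 7, where 46.4%, 43.5% and 43.6% of all peaks in those lists had such a background. At the genome-wide level were 20.8%, 21.2% and 18.8% of all peaks in the lists of days 1, 3 and 7. The part of local background in the order of the days was not tested beyond these subsets.

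The medians of the days lay farther apart among members with a -log10 q from 8 to 15 than among weaker ones. With a -log10 q from 8 to 10, the median distance was 8804 bp on day 1 (7820 to 9878, 562 members), 12803 bp on day 3 (11537 to 14896, 1099 members) and 19621 bp on day 7 (15803 to 22647, 511 members). From 10 to 15 it was 9782 bp (7321 to 12036, 169 members), 12695 bp (11169 to 14994, 648 members) and 17405 bp (14832 to 22408, 221 members). There the intervals of successive days overlap. From 15 to 30 there were only 6, 76 and 27 members, with medians of 4913 bp (704 to 47542), 16616 bp (12469 to 22721) and 69453 bp (19088 to 181652). With a -log10 q from 3 to 4, it was 9662 bp (9130 to 10200), 10813 bp (10241 to 11485) and 10312 bp (9671 to 11206), so day 3 was the farthest. From 4 to 5 it was 8376 bp (7984 to 8856), 11042 bp (10609 to 11562) and 12035 bp (11137 to 12548), in the order of the days, though the intervals of days 3 and 7 overlap. From 5 to 6 it was 9495 bp (8877 to 10066), 9455 bp (8941 to 9920) and 10256 bp (9516 to 11030), with intervals that overlap. From 6 to 8 the order of the days held again, without overlap of the intervals, at 8846 bp (8209 to 9516), 11680 bp (10981 to 12343) and 13247 bp (12429 to 14222).

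**Figure D4:**
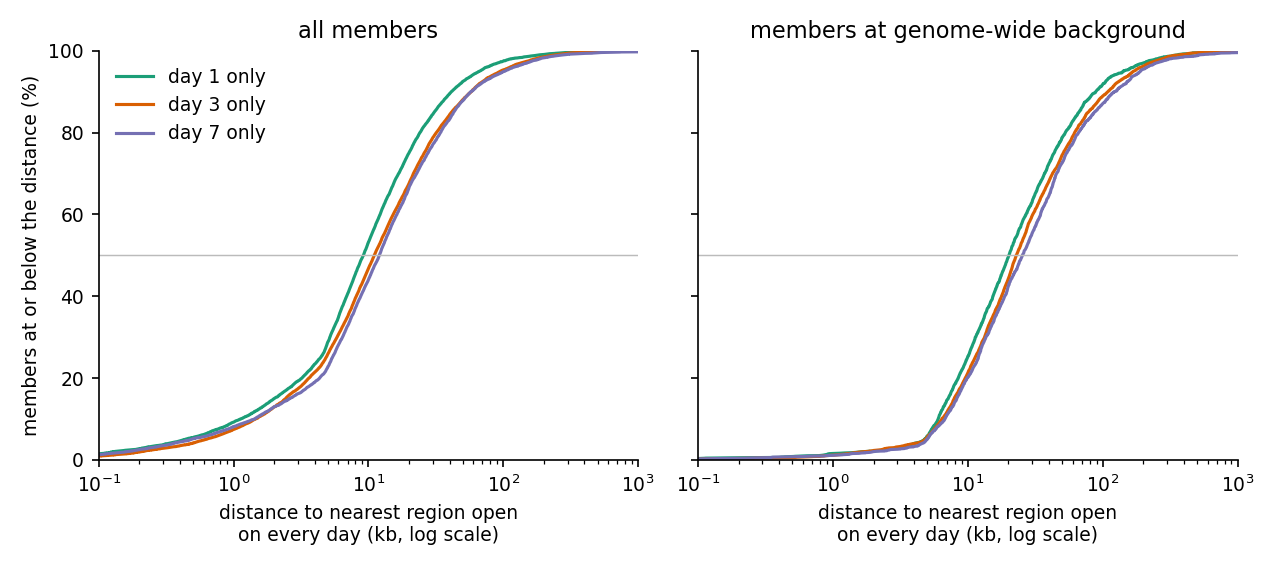
Cumulative share of members (y axis, percent) by distance to the nearest region open on every day (x axis, kb, log scale), for all members (left) and for members whose local background is at the genome-wide level (right). The curve of day 1 lies to the left of those of days 3 and 7 in both panels, with medians of 9183, 11048 and 12052 bp on the left and 20149, 22864 and 25412 bp on the right.

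Regions gained on all 3 induced days lay at a similar distance from members of every day, with medians of 29304 bp (28323 to 30437), 28657 bp (27792 to 29479) and 30040.5 bp (29059 to 31205) for days 1, 3 and 7, and overlapping intervals. A gained region was nearer than any region open on every day for 26.4%, 30.2% and 32.1% of members on days 1, 3 and 7. Of all joined regions, 13.1% are gained on all 3 induced days and 41.6% are open on every day. Whether these shares differ from what those numbers alone imply was not tested. The nearest joined region of any class was open on every day for 35.2% of day 1 members, 34.3% of day 3 members and 31.2% of day 7 members, although such regions are 41.6% of all. It was a region shared by days 3 and 7 for 3.95% of day 1 members (3.57 to 4.35), 5.68% of day 3 members and 7.11% of day 7 members (6.55 to 7.71), where that class is 4.55% of all regions.

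As a share of all joined regions, members on chromosome 19 stood at the low end. A chromosome with more regions open on every day leaves a smaller share for members. Whether the contrasts hold among regions not open on every day was not tested. Of its 5526 joined regions, 56.6% were open on every day, and members of days 1, 3 and 7 were 313 (5.66%, 5.07 to 6.31), 370 (6.05% to 7.39%) and 158 (2.86%, 2.44 to 3.33) of them. Chromosome X had a lower share of day 1 members, at 5.59%, which lies within the interval of chromosome 19. Chromosome 13, with 34.7% of 3648 regions open on every day, had 6.99%, 11.2% (10.2 to 12.3) and 6.36% (5.59 to 7.20). The median distance to a region open on every day was 6317 bp for members on chromosome 19 and 16719 bp for those on chromosome 13. Chromosome 16 had the highest share of day 1 members, at 7.70% (6.98 to 8.46), an interval that overlaps the 7.33% (6.74 to 7.96) of chromosome 10. Chromosome Y, with 233 regions in all, was left out of these comparisons.

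The members with the highest folds stood well above the limit of their list. The nearest peak of another list lay between 548 and 161860 bp from them. On day 1 the highest fold was 5.54, with 38 reads at the summit, on chromosome 8, 115535169 to 115535607, where the nearest day 0 peak lay 24007 bp away. The next were chromosome 2, 218701927 to 218702253, with a fold of 5.40 and 37 reads, and chromosome 1, 198817986 to 198818621, with 5.25 and 36 reads. Chromosome 13, 87553115 to 87553578, also had 5.25, and chromosome 9, 16835872 to 16836249, had 5.19. All 5 had a local background between 1.00 and 1.11 times the genome-wide one.

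Day 3 held the highest fold of all members, 6.86 with 52 reads, on chromosome 1, 173244254 to 173245093. The nearest peaks of days 0, 1 and 7 lay 19427, 19498 and 15861 bp away. Chromosome 10, 17418907 to 17419378, followed with 6.73 and 51 reads, and there peaks of days 0 and 1 lay 548 and 582 bp away. Chromosome X, 55137842 to 55138522, had 6.21 and 47 reads, chromosome 3, 37550371 to 37551049, had 6.07 and 49 reads, and chromosome 1, 93338217 to 93338789, had 5.95 and 45 reads.

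Day 7 had its highest fold, 6.61 with 47 reads, on chromosome 6, 164166901 to 164167305, 165563 bp from the nearest region open on every day. Chromosome 11, 13139700 to 13140129, had 6.01 and 42 reads. Folds of 5.91 with 41 reads each were found on chromosome 3, 124147791 to 124148410, chromosome 5, 59294976 to 59295332, and chromosome X, 26894810 to 26895295. Of these 5 day 7 members, 3 lay more than 100 kb from any region open on every day, against 0 of the 5 on day 1 and 0 of the 5 on day 3.

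The widest members were chromosome 11, 9605650 to 9606612, on day 1 (963 bp, fold 2.97), chromosome 15, 70432768 to 70433872, on day 3 (1105 bp, fold 4.86) and chromosome 13, 58218157 to 58219400, on day 7 (1244 bp, fold 4.23). The most reads at a summit were 157 on day 1, on chromosome 22, 39920617 to 39920831, 165 on day 3, on chromosome 1, 878563 to 878769, and 127 on day 7, on chromosome 16, 2203556 to 2203798. These 3 had low folds of 1.66, 1.46 and 1.79, and their local background was 15.6, 16.7 and 11.6 times the genome-wide one. The members farthest from a region open on every day lay on chromosome 16, 6693127 to 6693393 (day 1, 1026610 bp), chromosome 11, 40315668 to 40315872 (day 3, 2984274 bp) and chromosome X, 27109341 to 27109730 (day 7, 1946783 bp).

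Long runs of successive members were found on day 7. A run was counted wherever successive joined regions along a chromosome were all members of the same day, with nothing of another class between them, a measure chosen after the values were seen. A run may cross stretches without a peak in any list, so its span is not one continuous open domain. The longest run held 4 members on day 1, 4 on day 3 and 11 on day 7. Runs of at least 3 numbered 55, 153 and 39, and runs of at least 5 numbered 0, 0 and 3. The longest was 11 on day 7 under 3 of the 4 other definitions for which it was computed and 10 with the same number of peaks from each list, and on day 1 it was 5 with the same number of peaks from each list and 8 when the day 0 list was ignored.

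The run of 11 spanned 234 kb on chromosome X, 26870112 to 27104189, with no peak of any list between 26972350 and 27103593. Its day 7 peaks had folds from 2.76 to 5.91 with a median of 4.22, 25 to 48 reads at the summit, and a median width of 436 bp, where all day 7 members had a median fold of 3.05 and a median width of 256 bp. The local background was at the genome-wide level for 3 of them and up to 1.63 times it for the others. With 75 kb added on each side, the span held 15 joined regions, of which 12 were seen on day 7 only, 2 on days 3 and 7 and 1 on all 3 induced days. None of the 15 had a day 0 peak, and the nearest region open on every day was 1708 kb from the run. The regions shared with earlier days also had higher folds on day 7, by unlike amounts. That on chromosome X, 27133705 to 27134431, had a fold of 8.45 with 59 reads, against 4.12 with 28 reads on day 1 and 4.01 with 30 reads on day 3. At 26801595 to 26802147 the fold was 6.90 on day 7 and 4.14 on day 3, and at 27105340 to 27105743 it was 4.02 and 3.88.

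The second run held 9 members over 419 kb on chromosome 13, 58240311 to 58658897, with folds from 2.80 to 5.02 and a median width of 586 bp. It lay in separate parts, 58240311 to 58313910 and, with 4 members, 58655106 to 58658897. No list had a peak between these parts. The widest day 7 member lay 20910 bp before the run. With the flanks, 15 of 16 joined regions had a day 7 peak, 4 a day 3 peak, 4 a day 1 peak and 1 a day 0 peak. At that last region, chromosome 13, 58198727 to 58199369, the folds were 3.40, 4.54, 5.05 and 5.49 on days 0, 1, 3 and 7. The third run held 5 members over 115 kb on chromosome 5, 21687697 to 21803009, overlapping the largest day 7 group at 1 end. No list had a peak in it between 21712322 and 21802710. With the flanks of this run, 9 regions had a day 7 peak, 1 a day 3 peak and 0 a peak on days 0 and 1. Whether copy number or a share of cells differed at these 3 spans was not tested.

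Counting members in fixed windows of 250 kb, also chosen after the values were seen, found the first and the third of these spans among the 4 fullest day 7 windows, but not the second. The fullest day 7 window, on chromosome X, 26750001 to 27000000, held 10 members among 11 regions (90.9%). The fullest day 1 window, on chromosome 7, 37000001 to 37250000, held 9 members among 24 regions, 7 of them open on every day. The fullest day 3 window, on chromosome 5, 149000001 to 149250000, held 14 members among 47 regions, 16 of them open on every day. Windows with at least 5 members numbered 304, 573 and 106 on days 1, 3 and 7. Members were more than 50% of the regions in 0, 0 and 2 of these.

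**Figure D5:**
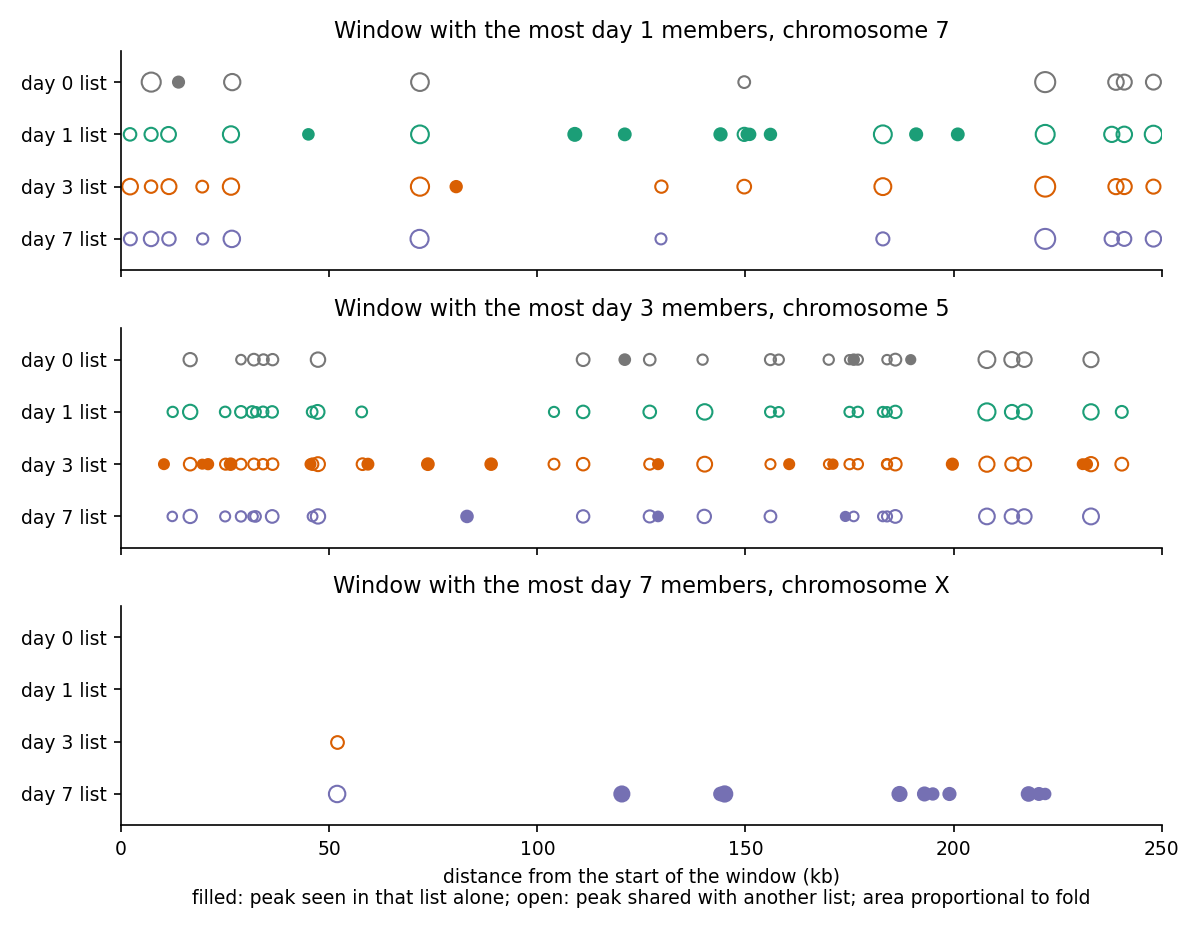
Peaks of the 4 lists (rows) by distance in kb from the start of the 250 kb window with the most members of day 1 (top), day 3 (middle) and day 7 (bottom); filled circles are peaks seen in that list alone, open circles are shared, and circle area is proportional to fold. Members of days 1 and 3 lie among peaks shared by several lists, while the day 7 window on chromosome X holds 10 members and 1 region shared with day 3.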

How the data were processed

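ATAC-seq peaks of 8 samples in 4 groups were deposited as 1 file of 4 lists (411408 peaks). The submitters' processing notes name Bowtie2, deepTools, MACS2 (2.1.1.20160309) and hg19. Not given in the sources used here is whether replicates were pooled before calling or cut sites offset for the transposase. As deposited, the score is a whole number per peak, 10 times the -log10 q. The deposited fold is a ratio of summit to local background, the authors' caller also wrote a -log10 p-value and a -log10 q-value for each peak, and the deposited summit offset, in bp from the peak's start, was not used. Peak numbers run with 185 to 196 omissions per list, so some peaks had been removed before deposit. Gaps of another list with such a number held 7, 28 and 20 members of days 1, 3 and 7.

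Summit reads were recovered as the whole number that fits fold and -log10 p, taking fold as (reads + 1) / (background + 1), with a largest misfit of 0.000863 in -log10 p. The background most common in a list was taken as genome-wide. Distances are bases between edges. Medians have binomial order-statistic 95% intervals. Read recovery, assignment of regions to days and both kinds of distance were tested on simulated data and were right in 100% of cases. The simulated reads followed the formula that recovery assumes, so that formula was not tested by them. They also did not reach the highest local backgrounds among members. Named by rule were, per day, the 5 members with the highest fold, the widest, that with the most summit reads, that farthest from a region open on every day, and the largest group. All other named regions were chosen after their values were seen. The members, this rule and the lists were chosen with earlier results of these data known. The gene annotation at hand belongs to another build, so genes and sequences at these positions were not analysed here. Python 3.11.15, NumPy 2.4.6, pandas 2.3.3, SciPy 1.17.1 and matplotlib 3.10.9 were used.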

Additional observations from a re-analysis of the deposited data

How the results depend on the processing

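With the same number of peaks from each list (80744), members numbered 3997, 4815 and 5025 on days 1, 3 and 7, with median widths of 334, 372 and 326 bp, median folds of 3.57, 3.85 and 3.66, and median distances to regions open on every day of 10224, 13348 and 15327 bp. That last alternative for distance was chosen after seeing the data. A reciprocal overlap of at least 50% gave 12853 peaks on day 7. With the 7694 strongest members per day, median spacing was 54123 bp on day 1 and 72894 bp on day 3. Median distance was 18864, 23527 and 29708 bp on days 1, 3 and 7 among members with a fold of at least 4. It was 20149, 22864 and 25412 bp at the genome-wide local background, also chosen after seeing the data, and 9794, 11686 and 12656 bp from centre to centre. A score of at least 30 gave median folds of 2.94 and 2.97 on days 1 and 3. The other 25 values of number, width, spacing, distance and fold stayed within 1.5 times (numbers) or within the interval of the median. Of the 8 members named by rule per day, 6 remained on day 3 with the same number of peaks per list, and all remained under every other alternative run. No replicate could be left out, because the lists hold no value per sample. No paired analysis was possible because the columns carry no replicate numbers. Depth limits all members: a median of 26 to 28 reads at the summit.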
